A study of Mus musculus with 12 samples.

Results

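The genes described here encode voltage-gated and related ion channel subunits, and were chosen by name alone: every gene whose platform symbol begins with Kcn (potassium channels) or Cacn (calcium channels), or with Scn (sodium channels) or Hcn (pacemaker channels) followed by a digit. The rule found 105 of the 15964 genes on the arrays, covered by 173 probe sets, of which 48 genes had several probe sets and 57 had 1. A gene with several probe sets was taken by the one with the highest mean over the populations, and the others served as a check. The potassium genes comprised 14 inward rectifiers, 25 voltage-gated alpha subunits, 12 auxiliary subunits, 10 2-pore channels and 8 calcium- or sodium-activated channel genes. The remainder were 9 calcium pore subunits, 12 calcium auxiliary subunits, 10 sodium channel genes, 2 pacemaker channel genes and 3 noncoding RNAs (Kcnmb4os1, Kcnmb4os2 and Kcnq1ot1), which carry a channel symbol but encode no channel.

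In the pancreatic β-cell, glucose metabolism closes ATP-sensitive potassium (KATP) channels, built from the pore subunit Kcnj11 and the sulfonylurea receptor Abcc8. The membrane then depolarizes, voltage-gated calcium channels open, and the calcium that enters triggers the release of insulin granules. Voltage-gated and calcium-activated potassium channels end each action potential, and auxiliary subunits set how many pores reach the membrane and how they gate.

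RNA of 4 populations of MIN6 cells, a β-cell line from an insulinoma of mice carrying the SV40 T antigen, was hybridised to the Affymetrix U74 version 2 mouse arrays, a set of 3 chips (A, B and C). The populations were high-passage parental cells (Pr-HP, 35 to 40 passages), high-passage clone 4 cells (C4-HP, 40 to 50 passages), low-passage clone 4 cells (C4-LP, 17 to 20 passages) and low-passage parental cells (Pr-LP, 17 to 20 passages). Clone 4 is a single subclone, obtained by limiting dilution from the parental line at low passage, and all 4 populations were grown in the same high-glucose medium without other treatment. By their insulin secretion, the study named C4-HP, C4-LP and Pr-LP responder cells and Pr-HP non-responder cells, and that grouping is used here. Each population has 1 array per chip. An SD is therefore the spread between the 3 responder populations, Pr-HP has no error of its own, and anything particular to the Pr-HP culture or its arrays cannot be told apart from its status as non-responder cells.

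Promoters are shown for Kcnma1, the pore of the large-conductance calcium-activated potassium channel, and Cacna2d1, the α2δ subunit that carries calcium channels to the membrane. They are the genes past 2-fold lower in Pr-HP for which the RefSeq table used here (GRCm38.p6) held a promoter with a single listed start, and of the 105 genes 79 had an entry. Each covers 250 bases before and 50 bases after the start, 5′ to 3′ on the gene's strand, at chr14:24004156-24004455 (minus strand) and chr5:15934441-15934740 (plus strand). Capitals mark GC boxes (GGGCGG, or CCGCCC on the other strand), of which Kcnma1 has 3 and Cacna2d1 has 7, with overlapping matches counted.
Kcnma1: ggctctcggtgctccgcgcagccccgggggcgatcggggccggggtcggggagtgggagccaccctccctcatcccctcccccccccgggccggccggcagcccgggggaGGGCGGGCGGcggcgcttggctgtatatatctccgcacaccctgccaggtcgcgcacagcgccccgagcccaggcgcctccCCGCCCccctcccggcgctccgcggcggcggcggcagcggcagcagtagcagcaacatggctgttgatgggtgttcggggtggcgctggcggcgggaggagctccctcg
Cacna2d1: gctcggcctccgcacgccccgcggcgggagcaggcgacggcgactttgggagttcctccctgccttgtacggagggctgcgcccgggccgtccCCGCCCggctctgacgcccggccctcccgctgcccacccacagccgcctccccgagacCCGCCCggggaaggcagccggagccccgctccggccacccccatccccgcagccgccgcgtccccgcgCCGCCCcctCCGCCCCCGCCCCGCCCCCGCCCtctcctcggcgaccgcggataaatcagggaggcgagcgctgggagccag
Both are rich in G and C, at 78% in Kcnma1 and 80% in Cacna2d1, against a median of 59.5% over 110 promoters of the channel genes and 52.7% over all 32851 promoters of this length. Kcnma1 held 36 CpG dinucleotides and Cacna2d1 42, more than 93.8% and 97.0% of all promoters. A GC box stood in 35.7% of all promoters. The letters of a NeuroD-type E box (CAGATG, in 17.15% of all promoters), a cyclic AMP response element (TGACGTCA, in 1.79%) and a TATA box (TATAAA, in 13.6%), searched on both strands, did not occur in either window.

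The array medians of the 4 populations differed little, from 214.2 to 216.0 units for chip A, 161.9 to 162.7 for chip B and 92.5 to 92.9 for chip C. The 3′ over 5′ signal of the Gapdh control, a measure of RNA quality, was on chips A, B and C lower in Pr-HP than in any other population (0.867, 0.953 and 1.16, against 0.968 to 1.05, 1.01 to 1.09 and 1.19 to 1.31 in the responder populations). For the β-actin control it was 1.15 in Pr-HP with chip A, against 1.25 to 1.43, and 1.28 with chip B, against 1.39 to 1.42, but with chip C the Pr-HP value of 1.34 lay inside the range of the others, 1.30 to 1.42. Of 10 β-cell markers 6 had a probe set (Ins2, Iapp, Chga, Pdx1, Slc2a2 and Pcsk1), with a median log2 difference of -0.22 and sums of 32096 units in Pr-HP, 33672 in C4-HP, 34945 in C4-LP and 32786 in Pr-LP. All 6 were well above the floors in every population, and the prohormone convertase Pcsk1 was past 2-fold higher in Pr-HP. The insulin gene Ins2 makes up much of these sums, and signals as bright as its own may lie beyond the linear range of the scanner. Some markers of other cell types were higher in Pr-HP. The 5 of 5 neuronal markers (Stmn2, Nefl, Nefm, Snap25 and Syt1) summed to 6996 units in Pr-HP, 3767 in C4-HP, 2679 in C4-LP and 1586 in Pr-LP. Of these 5, 2 were past 2-fold higher in Pr-HP, and the median log2 difference was 1.08. In limma 1 of them was higher at an unadjusted p under 0.05 and 0 at an adjusted one. The 3 of 3 duct markers (Car2, Krt19 and Sox9) summed to 2615, 955.2, 912.6 and 1051 units in the order Pr-HP, C4-HP, C4-LP and Pr-LP. The duct sum follows Car2 alone (1831 units in Pr-HP, against 161.9, 131.4 and 139.5), since Krt19 was highest in Pr-LP and Sox9 stayed between 687.9 and 736.9 units. The 3 of 5 α-cell markers with a probe set (Gcg, Ttr and Irx2) summed to 10842, 4345, 6391 and 984.6 units in that order. Gcg was past 2-fold higher in Pr-HP (10552 units, against 2915, 3175 and 501.7) and Ttr past 2-fold lower (248.0 units, against 1362, 3135 and 435.4), while δ-cell (Sst and Hhex) and PP-cell (Ppy) sums were not highest in Pr-HP. None of these markers was at 0 in any population, and their part in the channel results, like that of RNA quality, was not tested.

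Of the 105 channel genes, 64 genes (89 probe sets) had at least 1 array above the 40th percentile of their chip and entered the tests, 41 did not, and 16 lay under the 20th percentile, the floor used here (67.3 units for chip A, 58.6 for chip B and 29.1 for chip C), in all 4 populations. Among the groups that encode channels, the inward rectifiers had the fewest passing genes for their number, 5 of 14, whereas 9 of 10 2-pore channels, 7 of 8 calcium- and sodium-activated genes and both pacemaker genes passed. Of the sodium channel genes 4 of 10 passed and of the calcium pore subunits 5 of 9. Of the 64 genes, 50 (78.1%) kept all 4 populations within 1.5-fold of each other, close to the 78.6% of all 12267 genes that passed the same filter.

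Against the responder populations, no channel gene was more than 2-fold higher in Pr-HP and 3 were more than 2-fold lower, namely Kcnma1, Cacna2d1 and the calcium pore subunit Cacna1c. These counts are of 71 channel genes whose higher side reached 100 units, and over all genes 1.33% were past 2-fold higher and 1.18% past 2-fold lower. In whole-population RNA, less transcript in each cell and fewer cells that express the gene cannot be told apart. No channel probe set passed an adjusted p of 0.05 in limma (Benjamini-Hochberg over 23340 probe sets), where 15 of all probe sets were higher in Pr-HP (0.0643%) and 4 lower (0.0171%). At an unadjusted p under 0.05, limma had 5 channel genes lower in Pr-HP (Cacna1c, Cacna2d1, Kcnd1, Kcnip1 and Kcnma1; 7.81% of 64, against 4.24% of all genes) and 2 higher (Kcnn2 and Scn3b; 3.12%, against 5.7%). Without Pr-LP among the responder populations, Kcnma1 alone stayed past 2-fold.

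The channel genes as a group were centred near 0. The median log2 difference of the 64 genes, Pr-HP minus responder populations, was -0.03, beside 0.00 over all genes, and their median absolute difference was 0.11, beside 0.13. The lower tail reached further, with a 10th percentile of -0.57 and a 90th percentile of 0.16, beside -0.32 and 0.32 over all genes. Pr-HP was the lowest of the 4 populations in 28 of the 64 genes and the highest in 11, beside 27.7% and 29.6% of all genes. At 1.5-fold, a threshold chosen after the values were seen, 7 channel genes were lower (9.86%, against 3.87% of all genes) and 1 was higher (against 3.86%). The 7 include Cacna1d, whose only value above the filter was that of Pr-LP, so its place there carries no weight of its own.

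**Figure D1:**
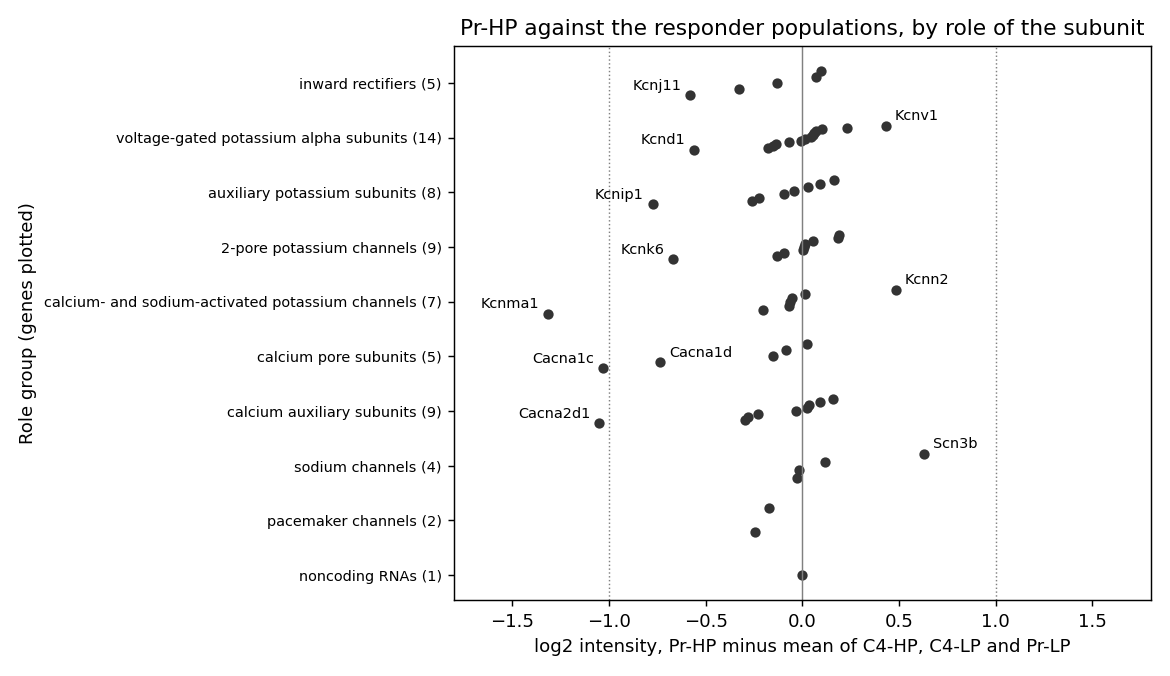
Each point is 1 of the 64 channel genes that passed the filter, placed by the log2 intensity of Pr-HP minus the mean of C4-HP, C4-LP and Pr-LP (horizontal axis) and by the role of its subunit (vertical axis, number of genes in parentheses); dotted lines mark 2-fold. Most points lie within 0.5 of the zero line (55 of 64), and the genes furthest to the left (Kcnma1, Cacna2d1, Cacna1c, Kcnip1, Cacna1d and Kcnk6) belong to 5 of the role groups.

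The 2 L-type calcium pore genes that passed the filter were Cacna1c and Cacna1d, the latter through its Pr-LP value alone. Both had their lowest value in Pr-HP, and neither passed the test. Cacna1c, an L-type pore through which β-cells take up calcium, was at 190.5 units in Pr-HP, against 370.8 in C4-HP, 361.6 in C4-LP and 440.6 in Pr-LP. The 3 responder values lay close together (391.0 ± 43.2 units, SD, n = 3 populations) and Pr-HP lay well below each of them, 2.05-fold under their mean (log2 difference -1.03, SE 0.14, limma adjusted p = 0.172). The platform annotation names this probe set Cacna1c, while a supplementary table of the study lists it under a RIKEN clone name, and the count of Cacna1c as past 2-fold rests on it. A second probe set of Cacna1c was at 155.9 units in Pr-HP, against 221.5, 229.3 and 177.9 in C4-HP, C4-LP and Pr-LP, so that Pr-HP was again lowest but the distance to Pr-LP was small (log2 difference -0.42, adjusted p = 0.59). Cacna1d, the other L-type pore known from β-cells, was dim, with 45.7 units in Pr-HP, 76.8 in C4-HP, 91.5 in C4-LP and 132.3 in Pr-LP. The Pr-HP value was under the floor of its chip, so Cacna1d was at least 2.26-fold lower in Pr-HP than in Pr-LP and at least 1.71-fold under the responder mean. Because only the Pr-LP value exceeded the filter of chip B (121.6 units), lower values elsewhere carry no weight of their own.

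The other calcium pores differed less. Cacna1b, the N-type pore, was at 347.4 units in Pr-HP, 336.1 in C4-HP, 354.5 in C4-LP and 334.7 in Pr-LP. Its second probe set was higher in Pr-HP (296.3 units, against 204.0, 216.2 and 196.7; log2 difference 0.53, limma adjusted p = 0.323), and the 2 probe sets thus gave different sizes for the same gene. Cacna1h and Cacna1i, T-type pores that open at low voltage, had log2 differences of -0.15 and -0.08. Cacna1a, Cacna1e, Cacna1g and Cacna1s did not pass the filter.

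Among the calcium auxiliary subunits, Cacna2d1 stood apart from the rest. It was at 374.8 units in Pr-HP, against 725.8 in C4-HP, 743.5 in C4-LP and 868.3 in Pr-LP. Pr-HP was 2.08-fold under the responder mean of 779.2 ± 77.7 units (SD, n = 3 populations), well outside their spread (log2 difference -1.05, SE 0.15, limma adjusted p = 0.196). Another probe set gave 160.8 units in Pr-HP, against 273.2, 245.5 and 280.2 (log2 difference -0.73, adjusted p = 0.278), and a dim probe set that did not pass the filter had 52.1 units in Pr-HP, against 119.5, 95.9 and 91.2. All 3 probe sets of Cacna2d1 thus had Pr-HP lowest. Cacna2d2, a related α2δ subunit, was at 614.6 units in Pr-HP, 556.2 in C4-HP, 568.0 in C4-LP and 529.5 in Pr-LP.

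The β subunit genes, whose products bind the pore from inside the cell, differed little in Cacnb1 (log2 difference -0.04) and somewhat more in Cacnb2. Cacnb2 was at 332.7 units in Pr-HP, 384.5 in C4-HP, 389.5 in C4-LP and 442.9 in Pr-LP (log2 difference -0.28, limma adjusted p = 0.606). Cacng4, a transmembrane γ subunit, was at 879.5 units in Pr-HP, 1031 in C4-HP, 971.3 in C4-LP and 1259 in Pr-LP. A dimmer probe set of Cacng4 ranged further, with 68.9 units in Pr-HP, 124.3 in C4-HP, 101.9 in C4-LP and 291.8 in Pr-LP, and Pr-LP stood above the other 3 in both. Of the γ subunits, Cacng2 had a dim probe set that was raised in 1 population only, with 59.9 units in Pr-HP, 52.9 in C4-HP, 154.0 in C4-LP and 50.9 in Pr-LP, while its brightest probe set stayed between 305.4 and 400.0 units.

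The inward rectifiers that passed the filter were Kcnj11, Kcnj2, Kcnj4, Kcnj5 and Kcnj9. Kcnj11, the KATP pore, was at 643.9 units in Pr-HP, against 933.1 in C4-HP, 1171 in C4-LP and 815.8 in Pr-LP. Pr-HP was the lowest population but the responder values were themselves spread (973.4 ± 181.1 units, SD, n = 3 populations), and the 1.51-fold difference had a limma adjusted p of 0.557 (log2 difference -0.58, SE 0.24). Its other probe set had tighter responder values, with 482.7 units in Pr-HP, against 967.5 in C4-HP, 1074 in C4-LP and 899.9 in Pr-LP. There Pr-HP was 2.03-fold under the responder mean (log2 difference -1.02, SE 0.13, unadjusted p = 8.4e-04, adjusted p = 0.148), the smallest adjusted p of any channel probe set tested.

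Abcc8, the regulatory partner of Kcnj11, was looked at because of these values. Its brighter probe set was at 836.1 units in Pr-HP, against 1073 in C4-HP, 1548 in C4-LP and 1185 in Pr-LP (log2 difference -0.58, limma adjusted p = 0.562). As in Kcnj11, Pr-HP was lowest and C4-LP highest, whereas a dimmer probe set of Abcc8 stayed between 154.7 and 174.6 units in all 4. Kcnj5, a subunit of G protein-gated channels, varied between 164.7 and 177.2 units, and its partners Kcnj3 and Kcnj6 were under the floor in every population.

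**Figure D2:**
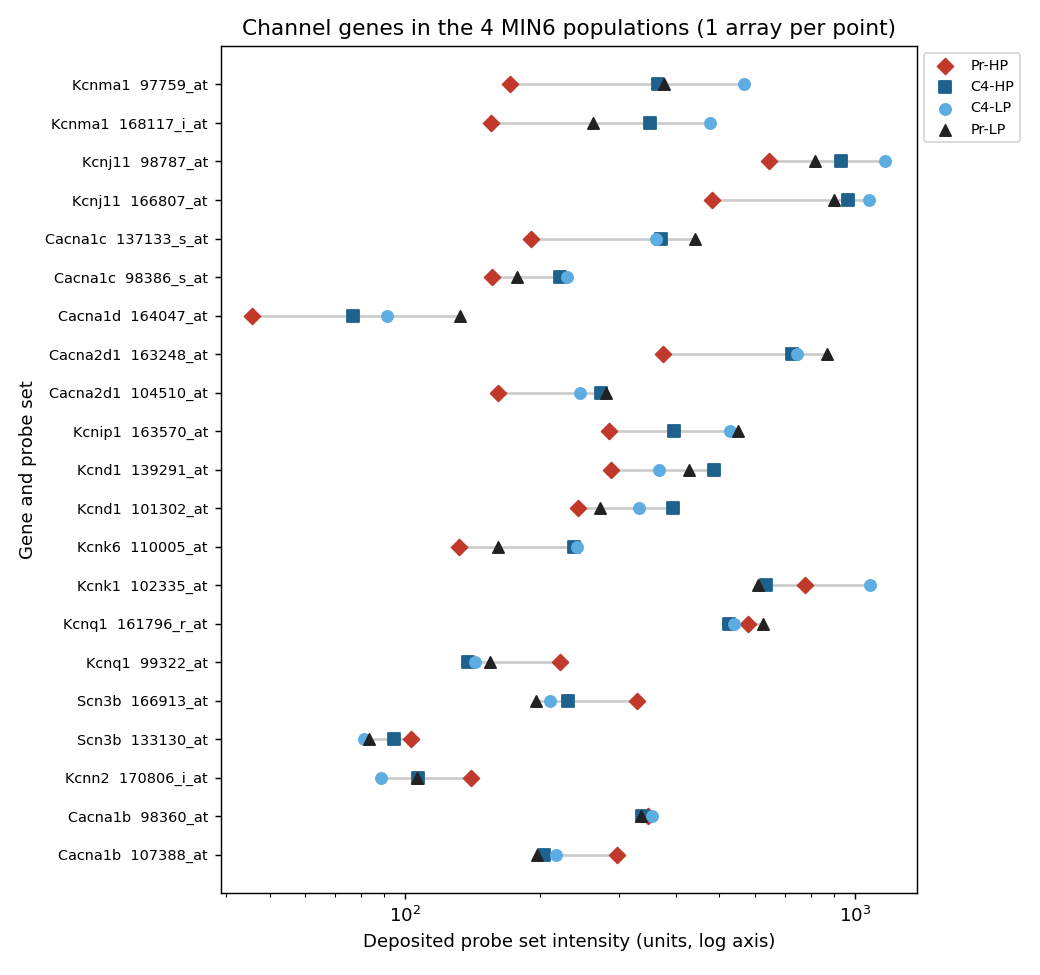
Deposited intensity (horizontal log axis, units) of each passing probe set of 13 channel genes, with 1 point per population and a grey line across their range. In the upper 13 rows, from Kcnma1 to Kcnk6, the Pr-HP diamond lies furthest left, and in both rows of Scn3b, in Kcnn2 and in the second rows of Kcnq1 and Cacna1b it lies furthest right.

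Of the voltage-gated potassium alpha subunits, 13 of the 14 that passed the filter had log2 differences under 0.5 in size. The exception was Kcnd1, the pore of a rapidly inactivating A-type current, with 287.9 units in Pr-HP, against 487.5 in C4-HP, 366.6 in C4-LP and 427.6 in Pr-LP (log2 difference -0.56, SE 0.18, limma adjusted p = 0.457). A second Kcnd1 probe set gave 242.4 units in Pr-HP, against 393.9, 330.8 and 271.7, again with Pr-HP lowest and C4-HP highest. Kcnd3, a pore of the same family, was at 417.0 units in Pr-HP, 395.6 in C4-HP, 409.2 in C4-LP and 455.0 in Pr-LP.

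Kcnq1, the pore of the slow delayed rectifier in heart and a gene subject to imprinting, gave different results with its 2 probe sets. The brighter probe set is marked _r, a type that may be less specific, and the other carries no such mark. The brighter one was at 579.6 units in Pr-HP, 525.1 in C4-HP, 539.8 in C4-LP and 626.7 in Pr-LP, with Pr-HP inside the range of the responder populations. The other was at 220.9 units in Pr-HP, against 137.8 in C4-HP, 143.2 in C4-LP and 154.9 in Pr-LP, with Pr-HP above all of them (1.52-fold, log2 difference 0.61, SE 0.12, unadjusted p = 0.0079, limma adjusted p = 0.324). Kcnq1ot1, the antisense noncoding RNA of this locus, was under the floor in all 4 populations.

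Other delayed rectifiers and ether-à-go-go pores varied between single populations. Kcnh1, an ether-à-go-go channel, was at 437.6 units in Pr-HP, 310.3 in C4-HP, 481.8 in C4-LP and 345.4 in Pr-LP. Kcnh2, which carries the rapid delayed rectifier of the heart, was at 515.9, 488.9, 654.6 and 570.8 units in the same order, and C4-LP was highest in both of these probe sets. A second probe set of Kcnh1 was highest in Pr-HP, with 338.2 units in Pr-HP, 244.8 in C4-HP, 315.8 in C4-LP and 285.6 in Pr-LP. Kcnc1, a fast delayed rectifier, varied little, between 867.9 and 954.9 units. Kcnv1, a silent subunit that modifies other potassium channels, was at 164.4 units in Pr-HP, 144.4 in C4-HP, 121.2 in C4-LP and 103.4 in Pr-LP, so that both high-passage populations exceeded both low-passage ones. Kcna2, Kcnd2 and Kcng2 did not pass the filter, and Kcnc2, Kcnh6 and Kcns3 were not analysed here.

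Among the auxiliary potassium subunits Kcnip1 differed most. Its product is a calcium-binding protein that attaches to the A-type pores of the Kcnd family. Kcnip1 was at 284.6 units in Pr-HP, against 396.4 in C4-HP, 527.7 in C4-LP and 551.2 in Pr-LP (1.73-fold under the responder mean, log2 difference -0.77, SE 0.23, limma adjusted p = 0.44). Pr-HP was the lowest population and C4-HP the next, with both low-passage populations above them. Kcnip3 was at 669.7, 757.7, 864.9 and 731.4 units in the order Pr-HP, C4-HP, C4-LP and Pr-LP. The β subunit gene Kcnab3 had 1 probe set between 206.7 and 236.8 units and another that varied without following passage or line, with 31.2 units in Pr-HP, 95.4 in C4-HP, 38.9 in C4-LP and 85.7 in Pr-LP.

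Among the 2-pore channels, which carry background potassium currents, Pr-HP was lowest in 3 of 9 tested genes, where it was lowest in 27.7% of all genes. The largest difference was in Kcnk6. It was at 132.1 units in Pr-HP, against 237.5 in C4-HP, 241.3 in C4-LP and 161.4 in Pr-LP (log2 difference -0.67, limma adjusted p = 0.558). The order followed the line, with both clone 4 populations above both parental ones, and clone 4 minus parental cells gave a log2 difference of 0.71 (unadjusted p = 0.00555, adjusted p = 0.924). Kcnk1 was at 776.4 units in Pr-HP, 635.1 in C4-HP, 1082 in C4-LP and 608.6 in Pr-LP, a maximum in C4-LP alone. The other 7 tested genes of the group had log2 differences between -0.13 and 0.19, Kcnk3, an acid-sensitive channel, among them.

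In the calcium- and sodium-activated group, Kcnma1 had the largest difference from the responder populations of the 64 channel genes. It was at 171.5 units in Pr-HP, against 365.1 in C4-HP, 567.8 in C4-LP and 376.0 in Pr-LP. Pr-HP was 2.54-fold under a responder mean of 436.3 ± 114.0 units (SD, n = 3 populations), and the spread of these 3 left a limma adjusted p of 0.369 (log2 difference -1.32, SE 0.31). The second probe set had 155.7 units in Pr-HP, against 350.2 in C4-HP, 475.9 in C4-LP and 261.5 in Pr-LP (2.33-fold under the mean, log2 difference -1.18, adjusted p = 0.42). In both probe sets of Kcnma1, the gene of the promoter with 3 GC boxes above, Pr-HP was lowest and C4-LP highest.

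The remaining genes of this group differed less from the responder populations. Kcnmb4, a β subunit of the same channel, was at 80.4 units in Pr-HP, 76.5 in C4-HP, 134.4 in C4-LP and 77.1 in Pr-LP, so that C4-LP alone stood out. Kcnn2, a small-conductance calcium-activated channel, was at 139.9 units in Pr-HP, against 107.1 in C4-HP, 88.3 in C4-LP and 106.5 in Pr-LP, with Pr-HP above the 3 others (log2 difference 0.48, SE 0.15, limma adjusted p = 0.436). Kcnn1 and Kcnn4 lay within 1.5-fold across the populations.

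Of the sodium channel genes, Scn3b was the 1 channel gene past 1.5-fold higher in Pr-HP. It encodes an auxiliary β subunit and was at 327.7 units in Pr-HP, against 230.3 in C4-HP, 210.5 in C4-LP and 196.1 in Pr-LP (1.54-fold over the responder mean of 212.3 ± 17.2 units, SD, n = 3 populations; log2 difference 0.63, SE 0.12, limma adjusted p = 0.271). A dimmer probe set had 103.3 units in Pr-HP, against 94.5, 81.1 and 83.3, with the same order of Pr-HP and C4-HP over the low-passage cells. Scn8a, a pore subunit, was at 389.7 units in Pr-HP, 412.8 in C4-HP, 399.2 in C4-LP and 371.1 in Pr-LP, and Scn2a at 286.6, 279.4, 280.2 and 236.8 units in that order. Scn9a, a pore subunit of mouse β-cells, did not pass the filter, and Scn3a was under the floor in all 4 populations.

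The pacemaker genes encode cation channels opened by hyperpolarization and cyclic nucleotides. Hcn2 was at 2046 units in Pr-HP, against 2407 in C4-HP, 2260 in C4-LP and 2624 in Pr-LP (log2 difference -0.25). Hcn3 was at 923.2 units in Pr-HP, against 1083, 1042 and 998.3 (log2 difference -0.17). Pr-HP was lowest in each, at limma adjusted p-values of 0.645 and 0.692. Dimmer Hcn2 probe sets did not share this, with 195.4 units in Pr-HP, 219.6 in C4-HP, 256.6 in C4-LP and 156.5 in Pr-LP in one and 66.1, 53.9, 60.6 and 63.3 units in the other.

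Where a gene had several passing probe sets, they mostly shared a sign. This was so for 18 of 22 genes, and for each of the 10 genes with a probe set whose log2 difference was at least 0.5 in size. In Kcnq1 (0.04 and 0.61), Cacna1b (0.02 and 0.53) and Kcnab3 (-0.05 and -1.13) a probe set with the shared sign was near 0. The share over all genes was not computed, so these counts cannot be called unusual. No gene had probe sets past 2-fold in opposite directions. The probe sets disagreed most in size for Kcnab3, Cacng4 and Cacna1c, which differed by 1.08, 0.87 and 0.61 on the log2 scale, and least among the genes past 2-fold for Kcnma1, by 0.14. Averaged over all their probe sets on the log2 scale, 1 channel gene was past 2-fold lower against the responder mean in place of 3.

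**Figure D3:**
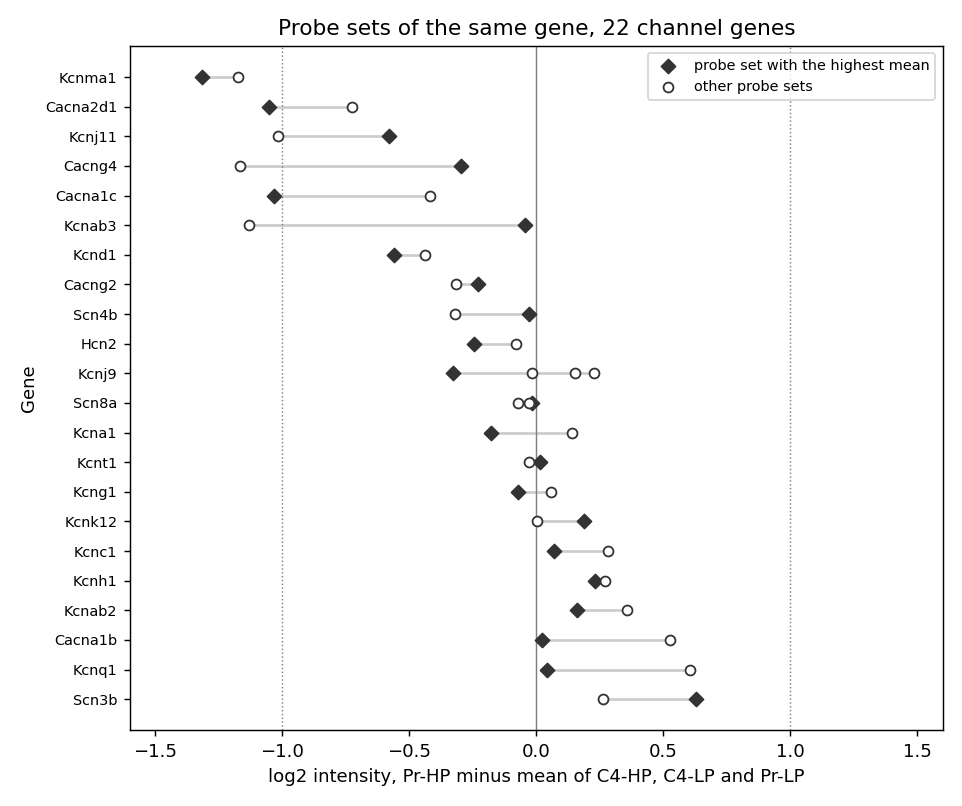
Log2 intensity of Pr-HP minus the mean of the responder populations (horizontal axis) for each passing probe set of the 22 channel genes that have several (vertical axis); filled diamonds are the probe sets with the highest mean, open circles the others, and dotted lines mark 2-fold. The probe sets of Kcnma1, Cacna2d1, Kcnj11, Cacna1c and Kcnd1 all lie left of zero and those of Scn3b right of it.

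High against low passage was compared within each line. In the parental cells, 4 of 71 channel genes were past 2-fold lower in Pr-HP than in Pr-LP (Cacna1c, Cacna1d, Cacna2d1 and Kcnma1), where 1.57% of all genes were lower, and 0 were higher, where 2.03% were. With the probe sets of highest mean the ratios were 2.31-fold for Cacna1c, 2.32-fold for Cacna2d1, 2.19-fold for Kcnma1 and at least 2.26-fold for Cacna1d. Other passing probe sets gave 1.14-fold for Cacna1c, 1.74-fold for Cacna2d1 and 1.68-fold for Kcnma1. Cacna1d passed the filter only through its Pr-LP value. A probe set of the β subunit gene Kcnab2 outside the counts was 2.05-fold higher in Pr-HP, and a Cacng4 probe set 4.24-fold lower. In clone 4, 0 of 72 channel genes were past 2-fold higher in C4-HP than in C4-LP, where 0.351% of all genes were, and 0 lower, where 0.997% were. There a dim Cacng2 probe set outside the counts was 2.91-fold lower in C4-HP. Cacna1c and Cacna2d1 barely differed between C4-HP and C4-LP, with C4-LP 0.975-fold and 1.02-fold of C4-HP.

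Kcnma1 was lower at high passage in both lines, 1.56-fold in C4-HP against C4-LP. At 1.5-fold, 5 channel genes were lower in C4-HP (Kcnh1, Kcnip4, Kcnk1, Kcnma1 and Kcnmb4, where 3.26% of all genes were lower), and 0 were higher (2.14% of all genes). In the parental cells 6 were lower at 1.5-fold (Cacna1c, Cacna1d, Cacna2d1, Kcnab1, Kcnip1 and Kcnma1, where 4.83% of all genes were) and 2 higher (Kcnv1 and Scn3b, where 5.56% were). Kcnma1 alone was in both lists. Across the 64 genes the 2 passage differences had a Pearson correlation of 0.15 and a Spearman correlation of 0.10, as a description across genes that share arrays, and no gene passed 2-fold in opposite directions. The median absolute log2 difference was 0.15 in the parental cells and 0.09 in clone 4, beside 0.16 and 0.12 over all genes. With both lines in 1 fit, limma called 0 probe sets of any gene at an adjusted p under 0.05. At an unadjusted p under 0.05, it had 3 channel genes higher at high passage (Cacng8, Kcnj2 and Kcnv1, where 1.67% of all genes were) and 2 lower (Cacna1d and Kcnip1, where 2.05% were). Cacna1d entered both the parental list and this fit only through its Pr-LP value, and carries no weight of its own in either.

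**Figure D4:**
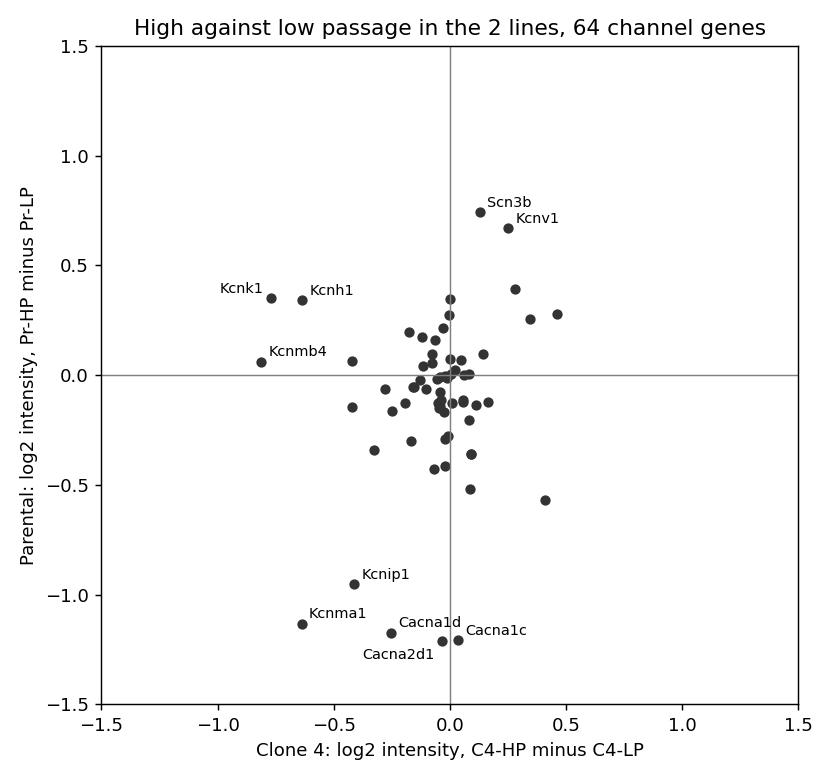
Passage difference of the 64 channel genes in clone 4 (horizontal axis, log2 intensity of C4-HP minus C4-LP) and in the parental cells (vertical axis, log2 intensity of Pr-HP minus Pr-LP), 1 point per gene. Cacna1c, Cacna2d1 and Cacna1d lie low but near the vertical zero line, and Kcnma1 lies low and to the left.

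Between the lines, 0 of 73 channel genes at low passage were past 2-fold higher in C4-LP than in Pr-LP, where 1.79% of all genes were, and 0 lower, where 1.17% were. These counts take each gene by its probe set of highest mean, and some other probe sets went past 2-fold. A Kcnab2 probe set was at 284.4 units in C4-LP against 121.1 in Pr-LP (2.35-fold), while the counted Kcnab2 probe set was at 221.9 against 210.3. Dimmer probe sets of Cacng2 and Cacng4 were 3.03-fold higher and 2.86-fold lower in C4-LP. At 1.5-fold, 4 channel genes were higher in C4-LP by the counted probe set (Kcnip4, Kcnk1, Kcnma1 and Kcnmb4, where 5.3% of all genes were) and 0 lower (3.93%). The 4 genes higher in C4-LP are also among the 5 lower in C4-HP, and both counts use the C4-LP array. Kcnip4, a relative of Kcnip1, was at 36.4 units in Pr-HP, 43.1 in C4-HP, 102.4 in C4-LP and 44.0 in Pr-LP, with all but C4-LP under the floor. At high passage 1 of 69 channel genes was past 2-fold lower in Pr-HP than in C4-HP (Kcnma1, 2.13-fold), where 1.11% of all genes were, and 0 were higher, where 1.73% were. Cacna1c and Cacna2d1 were 1.95-fold and 1.94-fold lower in that comparison. At 1.5-fold, 5 were lower in Pr-HP (Cacna1c, Cacna2d1, Kcnd1, Kcnk6 and Kcnma1, where 3.74% of all genes were) and 0 higher (4.57%). With both passages in 1 fit of clone 4 against parental cells, limma called 0 probe sets of any gene at an adjusted p under 0.05. At an unadjusted p under 0.05, it had 1 channel gene, Kcnk6, higher in clone 4 (where 3.33% of all genes were) and 0 lower (2.39%).

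Of 42 channels known from β-cells, 32 had a probe set and 21 passed the filter. Their median log2 difference between Pr-HP and the responder populations was -0.15, beside 0.00 over all genes, and none passed an adjusted p of 0.05. At an unadjusted p under 0.05, 3 of the 21 were lower in Pr-HP (Cacna1c, Cacna2d1 and Kcnma1), where 4.24% of all genes were, and 0 were higher, where 5.7% were. Cacnb3, Hcn4, Kcnk16 and Kcnn3, also on that list, were not analysed here.

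Partners of the channels outside the name rule were counted in the same way. Of 63 listed, among them pumps, exchangers, store-operated and chloride channels, 52 had a probe set and 41 passed the filter, with a median log2 difference of -0.10. None was called by limma, 3 were higher and 6 lower in Pr-HP at an unadjusted p under 0.05, and 2 were past 2-fold lower. Over all genes 5.7% were higher and 4.24% lower at that p, and 1.18% past 2-fold lower. Fgf12, an intracellular regulator of sodium channels, was at 90.1 units in Pr-HP, against 358.0 in C4-HP, 239.3 in C4-LP and 319.1 in Pr-LP (log2 difference -1.74, limma adjusted p = 0.173). Unc80, a subunit of the sodium leak channel complex, was at 35.3 units in Pr-HP, against 78.4, 127.4 and 153.4 (log2 difference -1.71, adjusted p = 0.339). In both genes every responder value exceeded that of Pr-HP, while the second probe set of Fgf12 was under the floor throughout and that of Unc80 did not pass the filter.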

How the data were processed

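Biotin-labelled RNA of the 4 populations was hybridised to chips A, B and C and read with GeneChip 5.1 software. The deposited values, made by the authors, are linear intensities, 1 for each probe set and array. The method of summary and normalization was not given in the sources used here. Of 36899 probe sets, 198 controls were left out, 29131 carried 1 gene symbol in the platform annotation, 724 several and 6846 none. All 105 channel symbols were found in RefSeq and 0 changed. Probe sets marked _s or _f can also detect other transcripts, and those marked _r or _i may be less specific. The probe sets of highest mean of Kcnq1, Hcn2, Kcnc1, Kcnq5, Kcnj9 and Cacnb1 are marked _r.

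The deposited intensities were raised to the 20th percentile of their chip and converted to log2 values. Probe sets with an array above the 40th percentile were fitted within each chip in limma 3.58.1 under R 4.3.3 (lmFit, eBayes), with 2 residual degrees of freedom. The Benjamini-Hochberg adjustment covered the 3 chips, with calls at an adjusted p under 0.05. The fit was also run on simulated data with independent errors, where differences were planted only in brighter probe sets. That run cannot show how the fit performs with dim genes or with populations that are not replicates. The limma p-values measure the spread between the populations, which are not replicate cultures, and having few arrays limits the precision. Ratios were counted where the higher side reached 100 units. Named are channels known from β-cells, members past 2-fold or called, and partners past 2-fold. Members past 1.5-fold, members at an unadjusted p under 0.05 and some examples of each role were added after their values were seen. Members and lists were chosen with earlier results of these data known. Alternatives varied the floor, normalization, filter, minimum, prior variance, probe set, covariates and populations.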

Additional observations from a re-analysis of the deposited data

How the results depend on the processing

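With the log2 values of all probe sets of a gene averaged, 1 channel gene was past 2-fold lower in Pr-HP against the responder mean in place of 3, and 2 in place of 4 against Pr-LP. Leaving out each responder population in turn gave between 1 and 3 genes, and the 1 came without Pr-LP, where the log2 differences of Cacna1c and Cacna2d1 were -0.94 and -0.97. With the floor at 1 unit, 1 gene was past 2-fold lower in C4-HP against C4-LP and 1 past 2-fold higher in C4-LP against Pr-LP, each in place of 0, since values under the percentile floor then count in full. The other 123 settings of these counts stayed within 1.5 times the main count or at 0, and in 532 settings of single named probe sets no adjusted p passed 0.05. Differences between the lines or passages that are near 0 or rest on Pr-HP changed sign in some of them, as for Cacna2d1 between clone 4 and parental cells (log2 difference 0.36, range -0.24 to 0.97). Between Pr-HP and the responder populations, where the following 4 stayed lower in Pr-HP throughout, the limma adjusted p ranged from 0.213 to 0.65 for Kcnma1, from 0.187 to 0.573 for Cacna2d1, from 0.154 to 0.565 for Cacna1c and from 0.146 to 0.56 for the Kcnj11 probe set with the larger difference. Over all probe sets the 19 calls between Pr-HP and the responder populations became 32 with the floor at 1 unit, 0 with it at the 40th percentile, 108 with no filter, 11 with an intensity trend, 26 after quantile normalization, and 0 to 3 with 1 responder population left out. With no filter, a dim second probe set of Scn2a, at 33.5 units in Pr-HP, against 28.5, 24.9 and 24.0 in C4-HP, C4-LP and Pr-LP, was among the calls, and its responder values all lay under the floor. With line or passage added as a second term, which pairs the populations and leaves 1 residual degree of freedom, limma called 0 probe sets of any gene for clone 4 against parental cells and 0 for high against low passage. The labels number no replicates. The threshold of 1.5-fold was chosen after seeing the data. In place of 2-fold it gave 1 channel gene higher and 7 lower in Pr-HP against the responder mean, and 2 higher and 6 lower against Pr-LP. It gave 5 lower and 0 higher in C4-HP against C4-LP, and 4 higher and 0 lower in C4-LP against Pr-LP. In Pr-HP against C4-HP 5 were lower and 0 higher. The 7 and the 6 both include Cacna1d, which rests on its Pr-LP value alone. The shares of all genes at 1.5-fold are given above with each comparison. Weak signals limit the dim genes: 41 of the 105 did not pass the filter, and for these no difference was tested.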
